A study of Mus musculus with 9 samples.

Results

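The CELF genes are a family of 6 (Celf1, Celf2, Celf3, Celf4, Celf5 and Celf6) among the 24505 genes of the count table, and their mRNA levels were examined in male germ cells entering meiosis. The family was selected on the counts of Celf6 in these same libraries, because Celf6 rose from late spermatogonia to preleptotene spermatocytes both with and without retinoic acid. The levels of Celf6 are therefore given as a description, without a test, and the other 5 genes were tested. The choice did not rest on the values of these 5, but earlier results of these data were known. All 6 were present in the table, and all 6 passed the filter on low counts in each comparison.

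Germ cells were sorted from Uchl1-eGfp mice in which spermatogenesis had been synchronized, and their mRNA was sequenced in 9 libraries, 3 of each of 3 groups. In/B libraries came from type B spermatogonia at postnatal day (P)17, and both groups of preleptotene (PL) spermatocytes came from mice at P19. All mice had received WIN18,446, an inhibitor of retinoic acid (RA) synthesis, by mouth at 100 µg per g of body weight in DMSO from P1 until P10 or P11 (the records give both days), followed on P11 by 10 µl of RA at 10 µg/µl under the skin to start spermatogonial differentiation. WIN18,446 was then stopped for the RA-sufficient PL group, so that the testis could make its own RA, and was continued for the RA-deficient PL group. The labels did not state which regimen the In/B mice followed after P11, but the authors describe In/B spermatogonia at P17 as RA-sufficient. If these libraries followed that regimen, RA-deficient PL and In/B differed in both stage and continued WIN18,446.

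Several features limit these groups as models of a cell type. The gate was set on EGFP driven by the Uchl1 promoter, which is bright in spermatogonia and dim in PL spermatocytes, on a C57BL/6 line outcrossed to CD-1. Each preparation pooled the testes of at least 5 pups of a litter. In bulk RNA, fewer cells that express a gene and less of its RNA per cell cannot be told apart.

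CELF proteins bind GU-rich stretches of RNA through RNA recognition motifs. In the nucleus they regulate alternative splicing, often in the opposite direction to muscleblind proteins, and in the cytoplasm they control the decay and translation of bound mRNAs. CELF1 and CELF2 are made in many tissues, and loss of Celf1 in mice is known to impair spermatogenesis, whereas CELF3, CELF4, CELF5 and CELF6 are best known from the nervous system.

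Depth and purity differed between the groups. Total counts per library were 16872425 to 26684393 in In/B, 12612959 to 21833333 in RA-sufficient PL and 25048240 to 27042274 in RA-deficient PL. Among the genes that define the labelled cells, Sycp3, Dmc1 and Prdm9, which act in meiotic chromosome pairing and recombination, were called higher in both PL groups than in In/B, as were 6 of the 8 genes on the preleptotene list. Stra8 was called in neither (log2 differences 0.97 and 1.34), and it stood at 54.4 to 165 CPM (read counts scaled to library size) in In/B, 121 to 444 CPM in RA-sufficient PL and 377, 365 and 81.5 CPM in RA-deficient PL. Rec8, the meiotic cohesin gene, was not called either (-0.92 and -1.32). Kit and Dmrt1, genes of differentiating spermatogonia, were called lower in RA-sufficient PL, as the label would have it, and neither was called lower in RA-deficient PL. There the libraries stood apart from one another. Kit was 561 and 521 CPM in replicates 1 and 2 and 20.3 CPM in replicate 3, against 327 to 404 CPM in In/B and 20.2 to 41.0 CPM in RA-sufficient PL. Dmrt1 was 460 and 485 CPM in replicates 1 and 2 and 111 CPM in replicate 3. Of the other 4 genes on the list for differentiating spermatogonia, Sohlh1 was at 60.8 and 65.2 CPM in replicates 1 and 2 and 16.3 CPM in replicate 3 (63.4 to 108 CPM in In/B), and Sohlh2 was called higher than In/B (1.24). Dmrtb1 was called lower in RA-deficient PL (-1.85, edgeR adjusted p = 1.95e-04), with 93.5 and 81.8 CPM in replicates 1 and 2, and Ccnd2 was not called (-0.01). The list thus did not go one way, but the Kit levels of replicates 1 and 2 went against their label, and results that rest on these libraries are given below also with replicate 3 as the only RA-deficient PL library and without it. The 9 Sertoli cell markers in the table summed to 194 to 575 CPM in In/B, 3819 to 5189 CPM in RA-sufficient PL and 557 to 859 CPM in RA-deficient PL.

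The start regions of Celf6 are shown first, because its mRNA separated the PL libraries from the In/B libraries, beside those of Celf3, which also rose, and Celf1, which was abundant in every library. Celf6 spans chr9:59425724-59455099 on the plus strand of mm9, the build of the counts, and its annotated span overlaps no other gene. Windows around RefSeq transcript starts (250 bases before to 50 after) come from build GRCm38.p6, so their coordinates are not on the scale of mm9. Celf6 had 2 such windows, Celf3 had 7, Celf2 and Celf5 had 5 each and Celf1 had 1. The windows are printed 5′ to 3′ on the gene's strand, and the capitals mark TGACGTCA, the cAMP response element (CRE), and CNCCTCAG on either strand, which has been described as a motif of STRA8, the RA-induced factor that acts at meiotic entry. These motifs were picked out for printing after the windows had been searched.
Celf6, upstream start, chr9:59578087-59578386 (+): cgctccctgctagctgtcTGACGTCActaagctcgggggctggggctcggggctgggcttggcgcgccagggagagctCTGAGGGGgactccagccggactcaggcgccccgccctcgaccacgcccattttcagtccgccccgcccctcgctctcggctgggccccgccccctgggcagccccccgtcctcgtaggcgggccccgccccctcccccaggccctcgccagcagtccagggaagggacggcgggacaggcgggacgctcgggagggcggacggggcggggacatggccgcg
Celf6, internal start, chr9:59589038-59589337 (+): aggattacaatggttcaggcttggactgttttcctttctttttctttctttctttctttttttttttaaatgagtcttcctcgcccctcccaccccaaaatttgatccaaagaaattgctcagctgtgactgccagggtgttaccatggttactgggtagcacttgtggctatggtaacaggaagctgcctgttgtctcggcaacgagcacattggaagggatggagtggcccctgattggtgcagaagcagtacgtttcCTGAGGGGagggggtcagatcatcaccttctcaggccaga
Celf3, chr3:94484077-94484376 (+): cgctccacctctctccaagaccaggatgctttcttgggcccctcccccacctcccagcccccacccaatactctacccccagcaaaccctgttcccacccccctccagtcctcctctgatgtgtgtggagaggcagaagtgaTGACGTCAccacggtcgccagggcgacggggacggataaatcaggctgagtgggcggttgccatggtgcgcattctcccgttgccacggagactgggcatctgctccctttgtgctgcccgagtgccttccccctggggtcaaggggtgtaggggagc
Celf1, chr2:90940147-90940446 (+): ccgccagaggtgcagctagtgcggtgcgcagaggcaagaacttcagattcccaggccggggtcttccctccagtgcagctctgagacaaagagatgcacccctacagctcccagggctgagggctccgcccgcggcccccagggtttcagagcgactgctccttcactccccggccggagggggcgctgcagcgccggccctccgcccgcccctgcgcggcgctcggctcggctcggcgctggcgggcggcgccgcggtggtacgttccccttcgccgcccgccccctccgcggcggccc
The CRE began 232 bases before the upstream Celf6 start and 108 bases before the Celf3 start shown, where 3 overlapping windows hold the same copy. It was found in 1.79% of 32851 RefSeq windows searched on both strands. CNCCTCAG was found in both Celf6 windows, 172 bases before the upstream start and from base 11 after the internal start, and in 7.94% of all windows. The 1 window of Celf1 and the windows of Celf2 and Celf5 hold neither sequence. Other sequences were searched as well, namely CACGTG (an E-box, in 7.15% of all windows), GGGCGG (35.7%), CCAAT (37.4%), TATAAA (13.6%) and AGGTCA (the RAR half-site, 16.3%). The upstream Celf6 window held 7 copies of GGGCGG, some of them overlapping, and none of the other 4. A match describes the letters in a window and was not tested for binding or use.

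Celf6, a splicing regulator known mainly from brain, was close to the limit of detection in spermatogonia and was readily counted in every PL library. It had 4, 7 and 8 counts in In/B replicates 1 to 3, which correspond to 0.22, 0.26 and 0.45 CPM. In RA-sufficient PL it had 157, 246 and 420 counts, or 11.6, 14.9 and 18.5 CPM. In RA-deficient PL it had 353, 468 and 847 counts, or 14.1, 18.5 and 37.0 CPM. No PL library came near the In/B range, and the ranges of the PL groups overlapped. Mean levels were 0.31 ± 0.12 CPM in In/B, 15.0 ± 3.49 CPM in RA-sufficient PL and 23.2 ± 12.2 CPM in RA-deficient PL (SD, n = 3 each), so the means of the PL groups were 47.8-fold and 74.1-fold that of In/B. On the log2 scale, the difference from In/B was 5.63 (SE 0.40) for RA-sufficient PL and 6.37 (SE 0.55) for RA-deficient PL, both against the same In/B libraries. Few counts lie under the In/B mean, and so the size of these folds is less certain than their direction.

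The highest Celf6 level was that of RA-deficient PL replicate 3, the library of its group in which Kit and Dmrt1 were low. It differed in other genes too. In replicates 1, 2 and 3, Meiob was at 57.5, 49.7 and 238 CPM and Spo11 at 31.6, 27.9 and 124 CPM. Rec8 was at 29.4, 39.5 and 5.86 CPM. Of the stem and progenitor genes, Zbtb16 was highest in replicate 3 (168, 145 and 227 CPM), as were Id4, Etv5, Nanos2 and Nanos3. Etv5 was at 22.2, 11.9 and 27.5 CPM, and Nanos3 was nearly level in replicates 1 and 3 (16.6 and 17.3 CPM). Gfra1 (24.8, 17.9 and 20.5 CPM) and Lhx1 were highest in replicate 1. Nanos2 was at most 2.97 CPM and Lhx1 at most 1.20 CPM in these libraries. Between the PL groups the log2 difference of Celf6 was 0.63 (SE 0.39). It fell to 0.13 without replicate 3 and was 1.30 (SE 0.32) with replicate 3 as the only RA-deficient PL library. Against In/B it was 5.87 without replicate 3 and 6.95 with replicate 3 alone. The part of the spermatogonial and meiotic mRNAs in this spread was not tested.

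**Figure D1:**
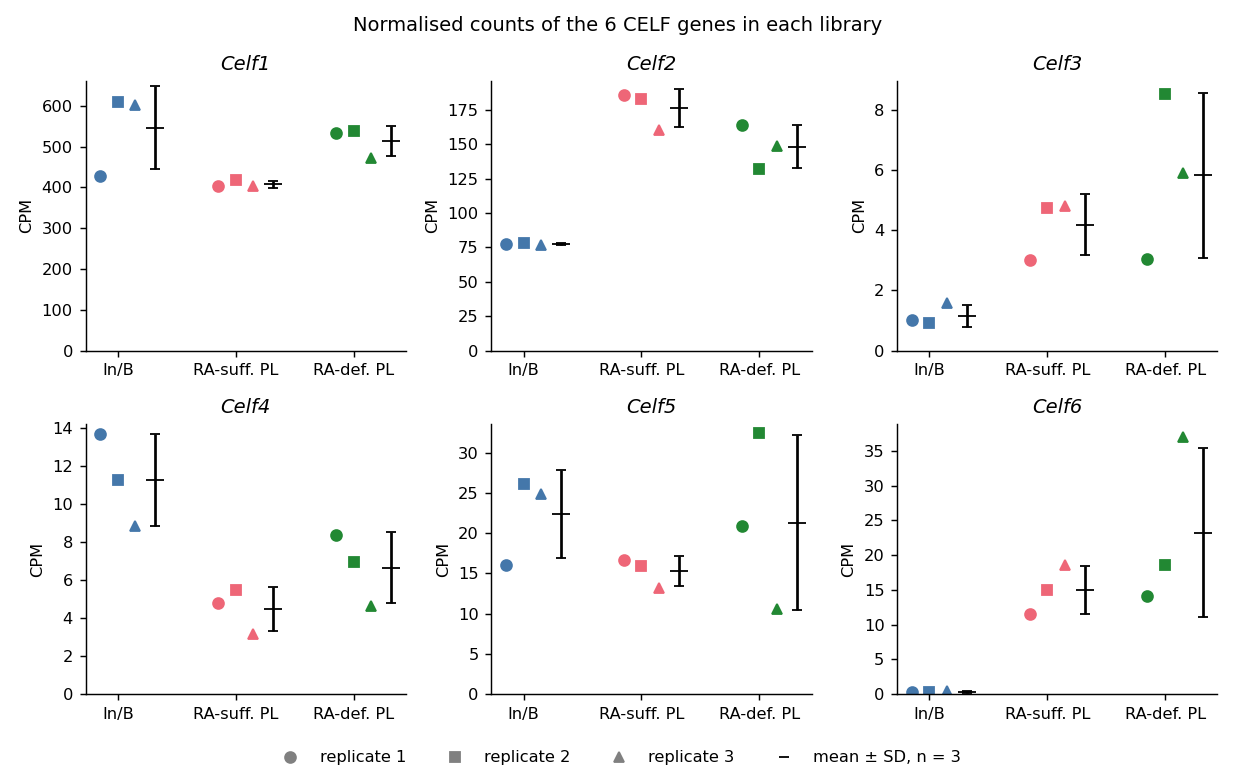
Normalised counts (CPM, linear axes from 0) of the 6 CELF genes in each of the 9 libraries, by group, with circles, squares and triangles for replicates 1, 2 and 3 and bars for the mean ± SD (n = 3). Celf6 is between 0.22 and 0.45 CPM in the In/B libraries and between 11.6 and 37.0 CPM in the PL libraries, Celf2 and Celf3 are higher in every PL library than in any In/B library, and Celf1 stays above 402 CPM throughout.

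Celf2 (chr2:6460751-7002348, minus strand of mm9), which encodes a broadly expressed splicing regulator, rose in both PL groups. Its levels in In/B were nearly the same in the 3 libraries, at 77.2, 78.4 and 77.0 CPM. They were 186, 183 and 160 CPM in RA-sufficient PL and 164, 132 and 149 CPM in RA-deficient PL. Every PL library exceeded every In/B library, and the PL groups overlapped. The mean in RA-sufficient PL was 2.27-fold that of In/B (log2 difference 1.24, SE 0.11, adjusted p = 4.25e-05, quasi-likelihood test of edgeR, adjusted after Benjamini and Hochberg over all genes tested). In RA-deficient PL it was 1.91-fold that of In/B, with a log2 difference in the fit of these groups of 1.10 (SE 0.13, edgeR adjusted p = 5.41e-04). A call required a log2 difference above 1 as well as an adjusted p below 0.05, and the estimate without RA implied little more than the required fold. It was 0.79 without scaling factors, 0.97 with all 9 libraries in 1 fit and 0.996 without RA-deficient PL replicate 1, each with an adjusted p below 0.05 and no longer a call. With replicate 3 as the only RA-deficient PL library it was 1.01 (edgeR adjusted p = 0.00224). Sertoli cell markers were also higher in RA-sufficient PL than in In/B, and came to 557 to 859 CPM in the RA-deficient PL libraries. Their part in the Celf2 levels was not tested.

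Celf3 (chr3:94282753-94296115, plus strand), one of the neural members, rose from a low level. Counts were 18, 24 and 28 in In/B, 41, 78 and 109 in RA-sufficient PL and 76, 215 and 135 in RA-deficient PL. The corresponding levels were 1.01, 0.91 and 1.58 CPM in In/B, 3.02, 4.73 and 4.81 CPM with RA, and 3.04, 8.52 and 5.90 CPM without it. Both PL groups lay above In/B without overlap, and the RA-deficient PL libraries were spread widely. The log2 difference from In/B was 1.91 (SE 0.41, edgeR adjusted p = 0.00341) with RA and 2.48 (SE 0.59, edgeR adjusted p = 0.0127) without. Leaving out In/B replicate 2 ended the call in RA-deficient PL (log2 difference 2.30, edgeR adjusted p = 0.0635). With replicate 3 as the only RA-deficient PL library the log2 difference was 2.41 (edgeR adjusted p = 0.0128).

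Celf4 (chr18:25636133-25912484, minus strand), a neural member that binds mRNAs of synaptic proteins, was lower in PL. In/B libraries had 13.7, 11.3 and 8.87 CPM. RA-sufficient PL libraries had 4.78, 5.46 and 3.18 CPM, all below In/B, and RA-deficient PL libraries had 8.36, 6.97 and 4.63 CPM, also below the lowest In/B library. The fall passed the test in RA-sufficient PL (log2 difference -1.28, SE 0.32, edgeR adjusted p = 0.00653) and did not in RA-deficient PL (-0.59, SE 0.36, edgeR adjusted p = 0.238). With replicate 3 as the only RA-deficient PL library the log2 difference was -1.21 (edgeR adjusted p = 0.0515). Between the PL groups the log2 difference was 0.57, with a 95% interval from -0.42 to 1.56 (edgeR adjusted p = 0.369), so the falls were not shown to differ.

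Celf1 (chr2:90780539-90859654, plus strand), the founding member and a regulator of both splicing and mRNA decay, was by far the most abundant. Its In/B levels were 429, 608 and 601 CPM. RA-sufficient PL libraries had 402, 418 and 404 CPM and RA-deficient PL libraries had 532, 539 and 472 CPM. With RA every library was lower than the lowest In/B library, though In/B replicate 1 missed this range by little, and without RA the libraries lay within the In/B range. The mean in RA-sufficient PL was 0.747-fold that of In/B (log2 difference -0.36, SE 0.14, edgeR adjusted p = 0.0466), which was too small for a call, and the adjusted p ran from 0.00223 to 0.152 over the alternatives. In RA-deficient PL the log2 difference was 0.08 (SE 0.14, edgeR adjusted p = 0.700), with a sign that changed under 4 of the alternatives. Directly between the PL groups, the RA-deficient PL libraries were all higher (log2 difference 0.33, SE 0.10, edgeR adjusted p = 0.0533). That difference was 0.40 (edgeR adjusted p = 0.0151) without RA-deficient PL replicate 3 and 0.21 (edgeR adjusted p = 0.396) with replicate 3 alone.

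Celf5 (chr10:80921972-80945454, minus strand), also a neural member, did not pass the test in any comparison. It was at 16.0, 26.2 and 24.9 CPM in In/B, at 16.7, 15.9 and 13.2 CPM in RA-sufficient PL and at 20.9, 32.5 and 10.6 CPM in RA-deficient PL. The groups overlapped in every comparison, and both the highest and the lowest library of the 9 were RA-deficient PL. The log2 difference from In/B was -0.49 (95% interval -1.03 to 0.05, edgeR adjusted p = 0.0985) with RA and 0.10 (-0.82 to 1.03, edgeR adjusted p = 0.872) without. The latter value was 0.43 without replicate 3 and -0.998 (edgeR adjusted p = 0.0583) with replicate 3 as the only RA-deficient PL library. Between the PL groups it was 0.47 (-0.49 to 1.44, edgeR adjusted p = 0.439), and 0.81 (edgeR adjusted p = 0.0417) without replicate 3.

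Of the 5 tested genes, 3 differed by a call between RA-sufficient PL and In/B (Celf2 and Celf3 higher, Celf4 lower), where 45.4% of all 15001 genes tested were called. In RA-deficient PL against In/B, 2 of 5 were called (Celf2 and Celf3, both higher), where 23.2% of 14877 genes were called. These comparisons share the In/B libraries. In RA-deficient against RA-sufficient PL, edgeR called 0 of 5, and 15.5% of 15352 genes were called. DESeq2 also called 0 there, and 1 of the 5, Celf1, had an unadjusted p below 0.05. Over all genes, 5758 of 15352 had one. With 5 genes, these counts are not set apart from the background shares. With replicate 3 as the only RA-deficient PL library the counts were 2 against In/B and 0 against RA-sufficient PL.

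**Figure D2:**
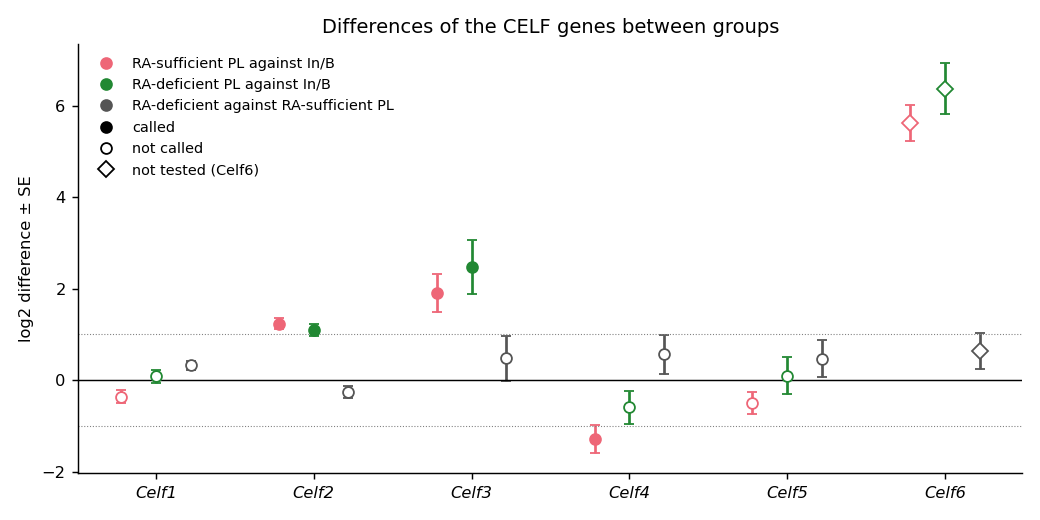
Log2 differences of the CELF genes with their standard errors in the 3 comparisons, in which the second group named is subtracted from the first. Filled circles were called, open circles were not, and the diamonds of Celf6 are descriptive. The differences of Celf2 and Celf3 lie above 1 in both comparisons with In/B, that of Celf4 lies below -1 in RA-sufficient PL, and those between the PL groups lie between -0.26 and 0.63.

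To compare levels between genes, CPM were divided by the length of annotated exon. In In/B the order was Celf1 (64.7 CPM per kb), Celf2 (6.32), Celf5 (3.36), Celf4 (2.82), Celf3 (0.425) and Celf6 (0.0866), and only Celf5 and Celf4 overlapped in their ranges over libraries. In RA-sufficient PL it was Celf1 (48.3 CPM per kb), Celf2 (14.4), Celf6 (4.14), Celf5 (2.29), Celf3 (1.53) and Celf4 (1.12), with overlap between Celf3 and Celf4. In RA-deficient PL the order was the same, with 60.9 CPM per kb for Celf1, 12.1 for Celf2, 6.42 for Celf6, 3.20 for Celf5, 2.12 for Celf3 and 1.66 for Celf4. Here Celf6 overlapped Celf5, Celf5 overlapped Celf3 and Celf3 overlapped Celf4. Celf6 thus moved from the sixth place to the third in both PL groups, while Celf1 was first and Celf2 second throughout.

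Summed over the family, CELF mRNA came to 77.7 ± 12.5 CPM per kb in In/B, 71.8 ± 1.94 in RA-sufficient PL and 86.4 ± 3.18 in RA-deficient PL (SD, n = 3). The range of In/B, 63.3 to 85.6 CPM per kb, overlapped that of both PL groups, and the make-up of the sum shifted with the genes described above. Celf1 made up 83.0% ± 2.45 of the sum in In/B, 67.3% ± 0.459 in RA-sufficient PL and 70.4% ± 2.88 in RA-deficient PL. Celf2 accounted for 8.29% ± 1.43, 20.01% ± 1.44 and 14.0% ± 1.76 in the same order, and Celf6 for 0.110% ± 0.0334, 5.78% ± 1.39 and 7.51% ± 4.20. Celf6 was 12.3% of the sum in RA-deficient PL replicate 3, against 4.50% and 5.73% in the other libraries of that group.

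**Figure D3:**
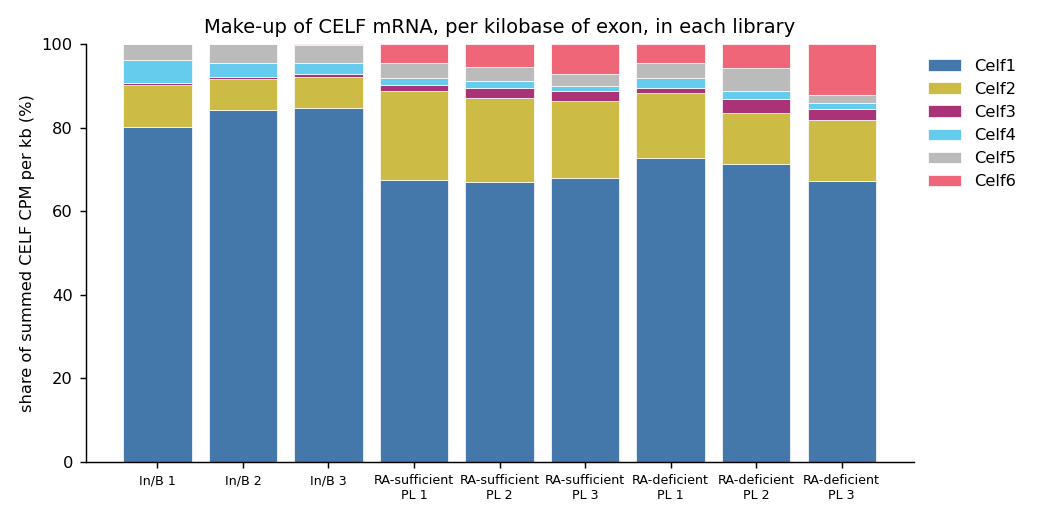
Share (%) of each CELF gene in the summed CELF level per kilobase of exon, with 1 stacked bar for each library. Celf1 is the largest segment in all 9 libraries, Celf2 takes up more of each PL bar than of any In/B bar, and the Celf6 segment is visible in the PL bars only, with 12.3% in RA-deficient PL replicate 3.

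Among 15835 genes, those whose log2 CPM followed Celf6 most closely over the 9 libraries were Fam161b (Pearson's r = 0.997), Acss2 (0.995), Stk25 (0.995), Sycp3 (0.994) and Wnk1 (0.994). These points share libraries and depth, and a difference between In/B and PL alone gives a high r. Sycp3, an axial element protein of the synaptonemal complex, was at 81.0 to 104 CPM in In/B, 403 to 612 CPM in RA-sufficient PL and 532 to 701 CPM in RA-deficient PL. Acss2, which makes acetyl-CoA from acetate, was at 110 to 115 CPM in In/B and 417 to 442 CPM and 484 to 621 CPM in the PL groups. In RA-deficient PL, replicate 3 was the highest library for all 5 genes, as it was for Celf6. Choosing the genes by r over these same libraries favours such a match. The rise of Celf6 on the log2 scale, at 5.63 and 6.37, was larger than those of these genes, which ran from 1.42 (Wnk1) to 2.48 (Sycp3) with RA and from 1.73 (Wnk1) to 2.80 (Sycp3) without.

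**Figure D4:**
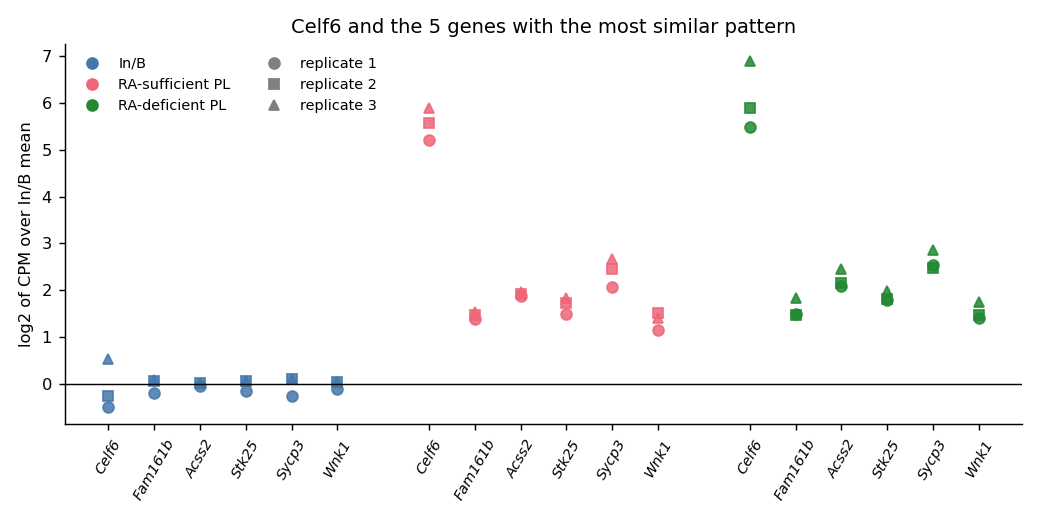
Log2 of CPM relative to the mean of the In/B libraries, for Celf6 and the 5 genes most like it in pattern, with 1 point for each library and a colour for each group. All 6 genes are above the In/B libraries in every PL library, and triangles mark replicate 3, the highest RA-deficient PL library for each of the 6. The 5 genes were picked for their likeness to Celf6 in these same libraries.

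For the other members, the most similar genes were Trio, 1700017B05Rik and Sos1 for Celf2 (r from 0.987 to 0.993), Adnp, Dolk and Cyth1 for Celf3 (0.957 to 0.967), and Arfip2, Zfp810 and Atl1 for Celf5 (0.944 to 0.952). Among the 3 most similar genes were Klf7 (0.976) and Haus3 (0.969) for Celf4, and Yipf6 (0.968) and Kdm4c (0.962) for Celf1. Trio was at 21.6 to 24.1 CPM in In/B, 64.8 to 84.8 CPM in RA-sufficient PL and 53.3 to 59.7 CPM in RA-deficient PL.

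The neighbours of Celf6 were Hexa, a lysosomal hexosaminidase subunit gene that ends 12810 bp before it, and Parp6, a poly(ADP-ribose) polymerase family gene that starts 9992 bp after it. The log2 differences of Hexa from In/B were 0.43 with RA and 0.60 without, neither of them a call. Those of Parp6 were 0.83 with RA, not called, and 1.25 without (edgeR adjusted p = 1.58e-04), called. Both were far smaller than those of Celf6. Celf2, Celf4 and Celf5 overlap annotated transcripts that have no entry of their own in the count table. Some of these lie on the same strand as the gene. For those on the other strand, it is not given whether strand was used in counting. The overlap is one of annotated spans, and whether it includes exons of Celf2, Celf4 or Celf5 was not checked. The part of these transcripts in the counts was not tested.

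Because CELF3, CELF4, CELF5 and CELF6 are known from neurons, and Uchl1-EGFP also labels neurons, neuronal markers were examined. The 9 markers summed to 39.8 to 40.8 CPM in In/B, 158 to 258 CPM in RA-sufficient PL and 63.9 to 79.7 CPM in RA-deficient PL, with none at 0 in all libraries of a group. Most of the RA-sufficient PL sum was Tubb3 (136 to 234 CPM), a tubulin gene that other cells also use. Syn1, a synapsin gene, was called higher in both PL groups, with means of 2.95 CPM in In/B, 14.8 CPM in RA-sufficient PL and 40.0 CPM in RA-deficient PL, the same order of groups as Celf6. Nefm was called higher with RA (1.38) and not without (0.56), and Map2 was called lower in both PL groups (-3.89 and -3.34). Rbfox3 was not called against In/B, either with RA (-0.18) or without it (2.85, edgeR adjusted p = 0.0523). It was at 2.12, 3.01 and 6.08 CPM in RA-deficient PL, against at most 1.06 CPM in In/B and 0.88 CPM in RA-sufficient PL. Snap25, Syt1, Nefl and Stmn2 were too low to be tested, with means below 1 CPM in every group. Celf6 ran from 11.6 to 18.5 CPM in RA-sufficient PL and from 14.1 to 37.0 CPM in RA-deficient PL. Between the PL groups the marker sum was higher with RA, whereas the levels of Syn1 and Rbfox3 were higher without it. The part of neuronal RNA in the levels of Celf3 and Celf6 was not tested.

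Muscleblind proteins, which bind many of the same transcripts as CELF proteins, were followed as a list of 3 genes. All 3 were called between RA-sufficient PL and In/B, with Mbnl1 (log2 difference 1.57) and Mbnl2 (1.12) higher and Mbnl3 (-1.44) lower. In that comparison 45.4% of all genes were called, and with 3 genes the count is not set apart from this share. In RA-deficient PL against In/B, edgeR and DESeq2 called 0 of 3 and none had an unadjusted p below 0.05, with -0.44 for Mbnl1, 0.33 for Mbnl2 and 0.20 for Mbnl3. Over all genes edgeR called 23.2% there, and 6819 of 14877 had an unadjusted p below 0.05. Directly between the PL groups, Mbnl1 was lower without RA (-2.13, edgeR adjusted p = 0.00475) and Mbnl3 was higher (1.51, edgeR adjusted p = 0.0327), while Mbnl2 (-0.91) was not called. There 15.5% of all genes were called. Leaving out any library other than RA-deficient PL replicate 3 ended the call of Mbnl3, with edgeR adjusted p values from 0.0713 to 0.112. The call of Mbnl2 against In/B ended without In/B replicate 2 (0.99) or RA-sufficient PL replicate 1 (0.98). Mbnl1 was at 12.4, 17.9 and 21.4 CPM in In/B, 59.8, 46.0 and 41.9 CPM in RA-sufficient PL and 15.5, 7.88 and 10.6 CPM in RA-deficient PL, so all RA-sufficient PL libraries lay above all others. Mbnl3 was at 134, 134 and 48.1 CPM in RA-deficient PL, where the last value, that of replicate 3, was nearest to the 32.6 to 45.0 CPM of RA-sufficient PL. With replicate 3 alone the difference of Mbnl3 between the PL groups was 0.39 and no longer a call, and that of Mbnl1 was -2.21 (edgeR adjusted p = 0.00779). Kit was low in RA-deficient PL replicate 3, and the Sertoli cell markers, like Mbnl1, were highest in RA-sufficient PL. The part of spermatogonial or Sertoli cell mRNAs in the Mbnl1 difference was not tested.

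ELAV-like proteins bind U-rich and AU-rich elements and stabilise mRNAs, and their list held 4 genes. Elavl1 was not called in any comparison (log2 differences 0.46, 0.31 and -0.26 in the order RA-sufficient PL against In/B, RA-deficient PL against In/B and RA-deficient against RA-sufficient PL). Elavl2 was lower in RA-sufficient PL than in In/B (-1.12, edgeR adjusted p = 0.00206) and higher in RA-deficient than in RA-sufficient PL (1.30, edgeR adjusted p = 0.0193). Elavl3, a neuronal member, was higher in RA-deficient PL than in both other groups, at 97.4, 123 and 72.0 CPM against 23.0 to 32.02 CPM in In/B and 22.5 to 26.7 CPM in RA-sufficient PL. Its log2 difference was 2.04 from In/B (edgeR adjusted p = 4.90e-04) and 1.98 from RA-sufficient PL (edgeR adjusted p = 0.00210), and with replicate 3 alone it was 1.502 and 1.55, still called. Elavl4 was not called (-0.29, 0.90 and 1.05), but was called against In/B (1.12, edgeR adjusted p = 0.0299) when RA-deficient PL replicate 3 was left out. With replicate 3 alone the difference of Elavl2 between the PL groups was 0.80 and not a call, and it was not called without RA-sufficient PL replicate 2 or 3 either (edgeR adjusted p = 0.0764 and 0.0731). Without replicate 3 of RA-sufficient PL its difference from In/B was -0.98 and no longer a call.

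The 15 other tissue splicing regulators were mostly lower where called in RA-sufficient PL, with 1 higher and 5 lower of 14 tested (median log2 difference -0.29, against 0.04 over all genes). The share called, 42.9%, was near the 45.4% of all genes. The lowest p values were those of Ptbp1, the polypyrimidine tract binding protein that represses neuronal exons, at -1.57 (edgeR adjusted p = 2.85e-05), and Khdrbs2, a gene of the SAM68 family, which went from 199, 302 and 193 counts in In/B to 0, 7 and 3 counts. In RA-deficient PL against In/B, 4 were called higher and 3 lower of 15, with Ptbp1 at -1.22 (edgeR adjusted p = 3.32e-04) and Ptbp3 at 1.01 (edgeR adjusted p = 4.82e-04). The share called was 46.7%, beside 23.2% of all genes. The Ptbp3 difference was 0.95 to 0.997, and no longer a call, without In/B replicate 1 or 2 or RA-deficient PL replicate 1. In the direct PL comparison 4 of 13 were higher without RA and none was lower (30.8% called, beside 15.5% of all genes). The lowest p values there were those of Ptbp2 (0.57, not called) and Nova2, a neuronal splicing regulator (1.12, edgeR adjusted p = 0.0265). The count of 4 depended on the libraries, with 0 called when any RA-sufficient PL library was left out and 1 without RA-deficient PL replicate 1 or 2. Nova2 was not called in these fits, other than that without RA-deficient PL replicate 1 (edgeR adjusted p from 0.0683 to 0.107).

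Deadenylation genes, whose products shorten the poly(A) tails of mRNAs bound by CELF1 and other factors, mostly differed by less than the fold required for a call. At an adjusted p below 0.05 without a fold limit, edgeR gave 7 of 15 with RA and 6 of 15 without RA against In/B. Between the PL groups it gave 5 of 15. The shares of all genes at this threshold are not given here, so these counts are not set against a background. At an unadjusted p below 0.05 the counts were 7, 6 and 8 of 15. Over all genes they were 10256 of 15001, 6819 of 14877 and 5758 of 15352. In RA-sufficient PL against In/B, 1 of 15 was called, Parn, the poly(A)-specific ribonuclease gene, which was lower (-1.37, edgeR adjusted p = 1.15e-04), and Cnot10 was at -0.80 without a call. Of all genes, 45.4% were called there and 23.2% in RA-deficient PL against In/B, beside 6.67% of this list in each. In RA-deficient PL against In/B, 1 of 15 was called, Cnot6l, a catalytic subunit gene of the CCR4-NOT complex, which was higher (1.27, edgeR adjusted p = 0.00105), and Cnot3 was at 0.97, with a call (1.01) only when In/B replicate 1 was left out or RA-deficient PL replicate 3 stood alone. When the PL groups were compared, edgeR and DESeq2 called 0 of 15, and edgeR called 15.5% of all genes. The 8 with an unadjusted p below 0.05 included Cnot10 (0.75) and Cnot1 (0.69).

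AU-rich element binders, which direct mRNAs to decay or hold them back from translation, had 3 genes lower and none higher of 8 in RA-sufficient PL against In/B. The share called was 37.5%, beside 45.4% of all genes. Zfp36l1 was at -2.70 (edgeR adjusted p = 1.56e-05) and Zfp36l2 at -2.10 (edgeR adjusted p = 1.85e-05), both decay factors. In RA-deficient PL against In/B edgeR called 0 of 8 and DESeq2 called 1, and 6 had an unadjusted p below 0.05, among them Khsrp (0.73) and Tia1 (0.77). Over all genes edgeR called 23.2% there, and 6819 of 14877 had an unadjusted p below 0.05. Relative to RA-sufficient PL, Zfp36l1 (2.11, edgeR adjusted p = 0.00179) and Zfp36l2 (1.63, edgeR adjusted p = 0.00519) were higher without RA. These were the 2 of 8 called (25%), beside 15.5% of all genes. Zfp36l1 was at 129 to 134 CPM in In/B, 14.2 to 22.8 CPM in RA-sufficient PL and 90.1, 93.2 and 67.2 CPM in RA-deficient PL, so the 3 groups did not overlap.

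Transcripts described elsewhere as bound or spliced by CELF proteins were taken as a list of 12. In RA-sufficient PL against In/B, 2 of 10 tested were called, both higher, namely the insulin receptor gene Insr (2.95, edgeR adjusted p = 3.47e-05) and the transcription factor gene Jun (1.38, edgeR adjusted p = 9.10e-04). The share called was 20%, beside 45.4% of all genes. In RA-deficient PL against In/B, 1 of 11 was higher and 1 lower, the latter being the cell cycle inhibitor gene Cdkn1a (-1.86, edgeR adjusted p = 0.00309), while Nf1 was at 0.62 without a call. The share called was 18.2% both there and between the PL groups, beside 23.2% and 15.5% of all genes. Of 11 tested between the PL groups, 2 were lower without RA, Cdkn1a (-1.88, edgeR adjusted p = 0.0207; 0.0573 without RA-deficient PL replicate 1 and 0.0692 with replicate 3 alone) and Insr (-1.75, edgeR adjusted p = 0.0172; 0.0653 and 0.0619 without RA-sufficient PL replicates 1 and 2), and Nf1 was at 0.68 without a call. Gene-level counts do not show which exons were spliced in.

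Over these 6 lists, the test against In/B called 16 of 54 genes in RA-sufficient PL (29.6%) and 11 of 56 in RA-deficient PL (19.6%), and 12 of 54 were called between the PL groups (22.2%), beside 45.4%, 23.2% and 15.5% of all genes. With replicate 3 as the only RA-deficient PL library, 16 were called against In/B and 8 between the PL groups. The latter count was 6 without any 1 of the RA-sufficient PL libraries, 7 without RA-deficient PL replicate 1 and 15 without its replicate 3.

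**Figure D5:**
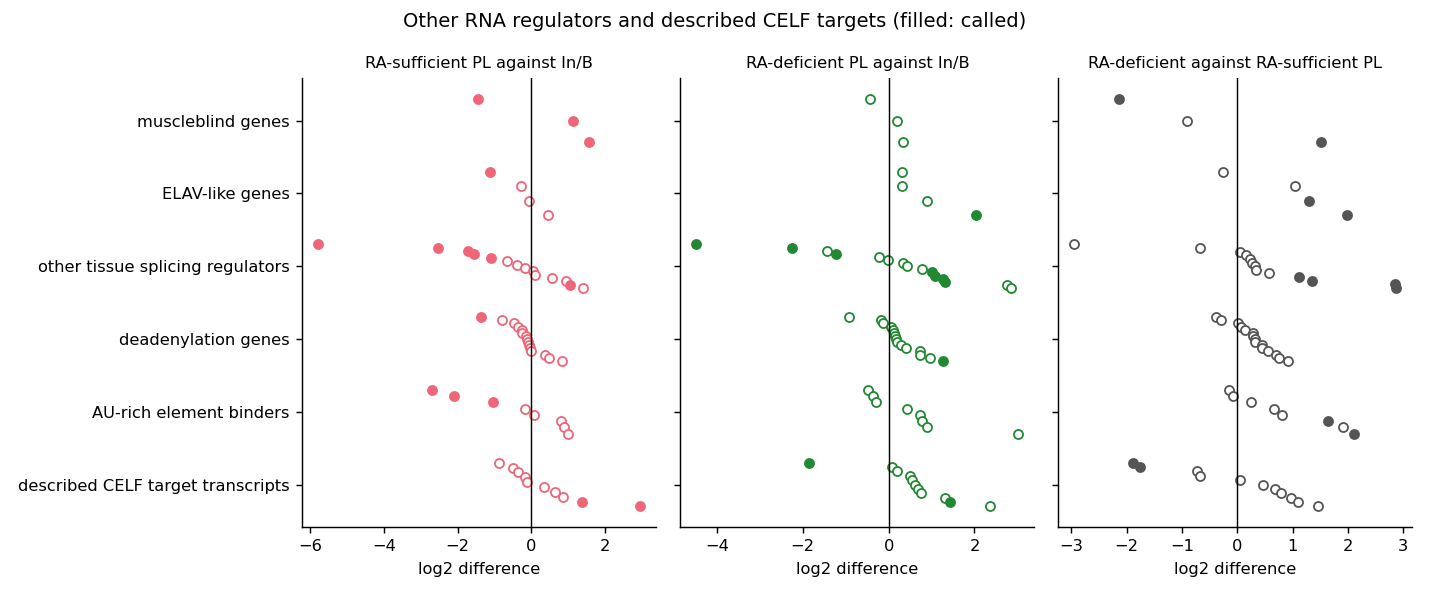
Log2 differences of the genes of the 6 RNA regulator lists in the 3 comparisons, with 1 point for each gene tested, filled where called. Against In/B, the called points of RA-sufficient PL lie on both sides of 0 with 5 higher and 11 lower, and between the PL groups 9 are higher and 3 lower without RA.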

How the data were processed

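mRNA of FACS-isolated germ cells was analysed in 9 libraries, 3 per group. The authors made stranded poly(A) libraries, used cutadapt 1.9 for trimming, STAR 2.5.2b for alignment of the single-end reads to mm9 and featureCounts for counting, and they deposited raw counts per gene without normalization. The gene annotation and the strand setting of the counting are not given in the sources used here. RNA came from independent cell preparations, of which the authors give 3 or fewer. Which library came from which is not stated, so libraries of a group may share one. The p-values therefore measure the spread between these libraries. No pair of libraries agreed within sampling noise.

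Counts were tested in pairs of groups with edgeR 4.0.16 in R 4.3.3 (TMM scaling, filterByExpr, quasi-likelihood test, Benjamini-Hochberg adjustment over all genes tested), and a gene was called at an absolute log2 difference above 1 and an adjusted p below 0.05. Standard errors are the log2 difference divided by the square root of F. CPM are scaled by TMM over all 9 libraries, so ratios of CPM means can differ slightly from fitted differences. The scripts were tested on simulated data. Exon lengths and mm9 coordinates come from GENCODE M1 and promoter windows from RefSeq on GRCm38.p6. Figures were drawn with matplotlib 3.10.9.

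Members and lists were chosen with earlier results of these data known. Named genes are all members, the 5 genes most like Celf6 and 3 most like each other member, overlapping genes and neighbours of Celf6, all muscleblind and ELAV-like genes, the 2 lowest p of each other list and comparison, and genes that define the cells. Of the most-like genes, 2 are not reported here. Rec8, Meiob, Spo11 and the spermatogonial and neuronal markers other than Kit and Dmrt1 were added after their values were seen. Alternatives were RLE or no scaling factors, 1 fit of all 9 libraries, no filter or one at a mean count of 50, a replicate block, other thresholds, DESeq2 1.42.0, and leaving out each library. RA-deficient PL replicate 3 alone was added after seeing the data, and its fit assumes that the lone library varies like the other group.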

Additional observations from a re-analysis of the deposited data

Results flagged for a closer look

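Celf6 was left out of these tests, and none of Celf1 to Celf5 differed between the PL groups by the criteria of a call. Among the named genes of the RNA regulator lists, 9 were called between RA-deficient and RA-sufficient PL in a direct test of that difference (edgeR's quasi-likelihood test, absolute log2 difference above 1 and Benjamini-Hochberg adjusted p below 0.05). In that test 15.5% of all genes were called, and some of the 9 were named for a low p in it. Higher without RA were Zfp36l1 (log2 difference 2.11), Elavl3 (1.98), Zfp36l2 (1.63), Mbnl3 (1.51), Elavl2 (1.30) and Nova2 (1.12). Lower without RA were Mbnl1 (-2.13), Cdkn1a (-1.88) and Insr (-1.75). Each was higher or lower in 3 of 3 RA-deficient PL libraries than in all RA-sufficient PL libraries. Picking genes by a call in these same libraries favours such a separation, so it adds no support. With replicate 3 as the only RA-deficient PL library, Mbnl3, Elavl2, Nova2 and Cdkn1a were no longer called (Cdkn1a edgeR adjusted p = 0.0692). Leaving out 1 library ended the call of Mbnl3 in 5 of 6 fits, of Nova2 in 4, of Insr and Elavl2 in 2 each, and of Cdkn1a in 1, without RA-deficient PL replicate 1 (edgeR adjusted p = 0.0573). Kit and Dmrt1 were also higher in RA-deficient PL replicates 1 and 2, and Sertoli cell markers were higher in RA-sufficient PL, and their part was not tested.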

How the results depend on the processing

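Over the alternatives, the log2 difference of Celf6 from In/B ran from 5.45 to 5.94 with RA and from 5.87 to 6.95 without, and that between the PL groups from 0.13 to 1.30, with 6.95 and 1.30 from RA-deficient PL replicate 3 alone. The 3 calls among Celf1 to Celf5 in RA-sufficient PL were made under every alternative run except a mean of at least 50 counts, where Celf3 was not tested and 2 remained, and the 0 between the PL groups stood. In RA-deficient PL the count fell from 2 to 1 with library size only, with all 9 libraries in 1 fit and at an adjusted p of at most 0.01, and was 1 to 2 with each library left out. For the 6 lists, calls in RA-sufficient PL numbered 30 by adjusted p alone. The shares of all genes by adjusted p alone are not given here. In RA-deficient PL they numbered 7 with library size only and 22 by adjusted p alone. Between the PL groups they numbered 4 at an adjusted p of at most 0.01, 22 by adjusted p alone and 6 to 15 with each library left out. Signs that changed against In/B without RA were those of Celf1 (-0.23 with library size only, -0.048 in 1 fit of all libraries, -0.062 to 0.16 leaving out each library, -0.14 with replicate 3 alone), Celf5 (-0.21, -0.032, -0.35 to 0.43 and -0.998), Mbnl3 (-0.12 with library size only, -0.035 to 0.54 leaving out each library, -1.03 with replicate 3 alone, edgeR adjusted p = 0.0163), Elavl1 (-0.0077 with library size only) and Elavl2 (-0.0013 with library size only, -0.30 with replicate 3 alone). With RA that of Elavl3 did so (-0.16 to 0.054 leaving out each library), and between the PL groups, with replicate 3 alone, those of Celf5 (-0.52) and Elavl1 (0.0053). The cause was not tested. Same-numbered libraries did not deviate together (r from -0.253 to 0.118 over 9 pairs), and a fit with the replicate block called 3, 2 and 0 of Celf1 to Celf5, with no change of call. The order of levels per kb was the same with the longest transcript and without scaling factors. Celf3, Celf4 and the In/B level of Celf6 rest on the fewest counts, which limits the size of their folds more than the direction.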
